A study of Mus musculus with 4 samples.

Results

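Gata3, Tbx21, Foxp3, Eomes, Bcl6, Maf, Zbtb16, Id2 and Tcf7 are transcription factors that mark or direct lymphocyte lineages. They were taken by their symbols as 9 of the 27998 genes listed in every library, and all 9 were found. Their transcripts were counted by droplet RNA sequencing of single CD45+ leukocytes from the nasal mucosa of C57BL/6 mice aged 8 weeks. There were 4 groups of 1 library each, named Vehicle and Ribavirin for mice without allergen and Vehicle-OVA and Ribavirin-OVA for mice given it. The allergen, ovalbumin (OVA), is in the study's rhinitis model injected with alum as adjuvant and then given into the nose. Ribavirin is an antiviral nucleoside analog, which the series describes as a nasal spray directed at viruses resident in the nose. Its dose and timing were not given in the sources used here. Vehicle and Ribavirin mice carry the treatment name without OVA, and all 4 groups share strain, age, tissue and the CD45 enrichment. DNase I, collagenase I and hyaluronidase were used to free the cells. The sample notes name magnetic beads for the CD45 step and the series text names flow sorting. The number of mice behind each library was not given.

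Lymphocyte identity is built by a small number of proteins that control transcription, switching on one programme and holding down others. Gata3 directs type 2 helper T cells and group 2 innate lymphoid cells (ILC2), the producers of IL-13, IL-5 and IL-4 in allergy. T-bet, the product of Tbx21, directs the opposing interferon-γ programme, and its T-box relative Eomes acts in NK cells and cytotoxic T cells. Foxp3 defines regulatory T cells, Bcl6 follicular helper T cells and germinal centre B cells, and Zbtb16 (PLZF) innate-like T cells. Maf drives IL-4, IL-10 and IL-21 in several helper subsets. Id2 blocks the E proteins and is needed by innate lymphoid and NK cells, whereas Tcf7 (TCF1) marks naive, memory and stem-like T cells.

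The 9 genes lie apart on the mouse genome, in GRCm38 coordinates of the GENCODE M21 annotation. Gata3 spans chromosome 2 from 9857078 to 9890034, Tbx21 chromosome 11 from 97098071 to 97115331 and Foxp3 chromosome X from 7573644 to 7595245. Eomes and Zbtb16 share chromosome 9, at 118478212 to 118486132 and 48654297 to 48836222, and Tcf7 lies on chromosome 11 from 52252371 to 52283014. Bcl6 lies on chromosome 16 from 23965052 to 23988852, Maf on chromosome 8 from 115682942 to 115707794 and Id2 on chromosome 12 from 25093799 to 25097140. Foxp3 and Eomes are on the plus strand and the other 7 on the minus strand. UMIs were counted per gene, so they do not show which exons or transcripts the reads came from. The longest annotated transcript ran from 1969 bases (Id2) to 6360 bases (Maf).

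With 1 library per group no test between groups was possible, so the values below are levels and ratios with exact intervals at 95% that cover counting error only and leave out the spread between animals. A level is given in CPM, the field's usual unit of counts scaled to a common total, from the UMIs of a gene in the cells of one class and library over all UMIs of those cells. A gene was counted as different when the ratio of CPM + 1 passed 2-fold, and only genes with at least 50 UMIs in the class over the 4 libraries were read. Libraries held 10311 to 28277 barcodes with median depths of 3389 to 4952 UMIs. The least deep barcode had 1782 UMIs in the Ribavirin library and 500 to 501 in the other 3. After filters on UMIs, mitochondrial share and doublets, 8506 to 23079 cells remained. Pairs of libraries shared 57 to 174 barcode sequences, at most 0.909% of the smaller library. UMIs of Ptprc, which encodes CD45, were found in 81.3% to 89.3% of barcodes, and small epithelial, stromal and olfactory neuron-like clusters were present in spite of the enrichment. Classes were clusters named "-like" from marker genes that did not include the 9 factors. The T cell-like class, regulatory cluster included, held 6209 cells in the Vehicle library, 1501 in Vehicle-OVA, 4037 in Ribavirin and 1868 in Ribavirin-OVA. NK-like cells numbered 633, 110, 609 and 174 in that order, and ILC2-like cells 113, 41, 93 and 84. All 10 T cell markers had UMIs in the T cell-like class of every library, with summed levels of 4469 to 5069 CPM against 903 to 967 CPM in NK-like cells.

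Among classes with at least 50 cells in a library, the label of lymphocyte factors was borne out for 8 of the 9 genes. In each library on its own, 8 or 9 of the 9 factors had their highest level in a lymphocyte class, counting classes with at least 50 cells there. Lymphocyte classes held 13.5% to 36.7% of the cells of a library. They held 95.3% to 98.3% of the Gata3 UMIs, 90.8% to 94.9% of those of Tbx21, 90.6% to 95.7% for Foxp3, 91.1% to 95.7% for Eomes and 93.2% to 94.2% for Tcf7. For Zbtb16 the share was lower, at 55.5% to 70.4%. Endothelial-like cells, too few to be counted above, also had Zbtb16. In Ribavirin 45 of them had 90.1 CPM (66.0 to 120), above the 39.0 CPM of T cell-like cells. In Ribavirin-OVA 36 had 60.4 CPM against 59.6 CPM, and in Vehicle-OVA 12 had 28.8 CPM against 54.3 CPM. The lymphocyte share of Maf followed at 45.2% to 57.8%, with Macrophage-like cells as the other large source, and that of Id2 at 29.7% to 48.2%. Bcl6 was the exception. Lymphocytes held 7.54% to 11.8% of its UMIs, and its level was highest in Neutrophil-like cells in 3 libraries, with 82.7 CPM (Vehicle), 66.9 CPM (Ribavirin) and 112 CPM (Ribavirin-OVA).

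**Figure D1:**
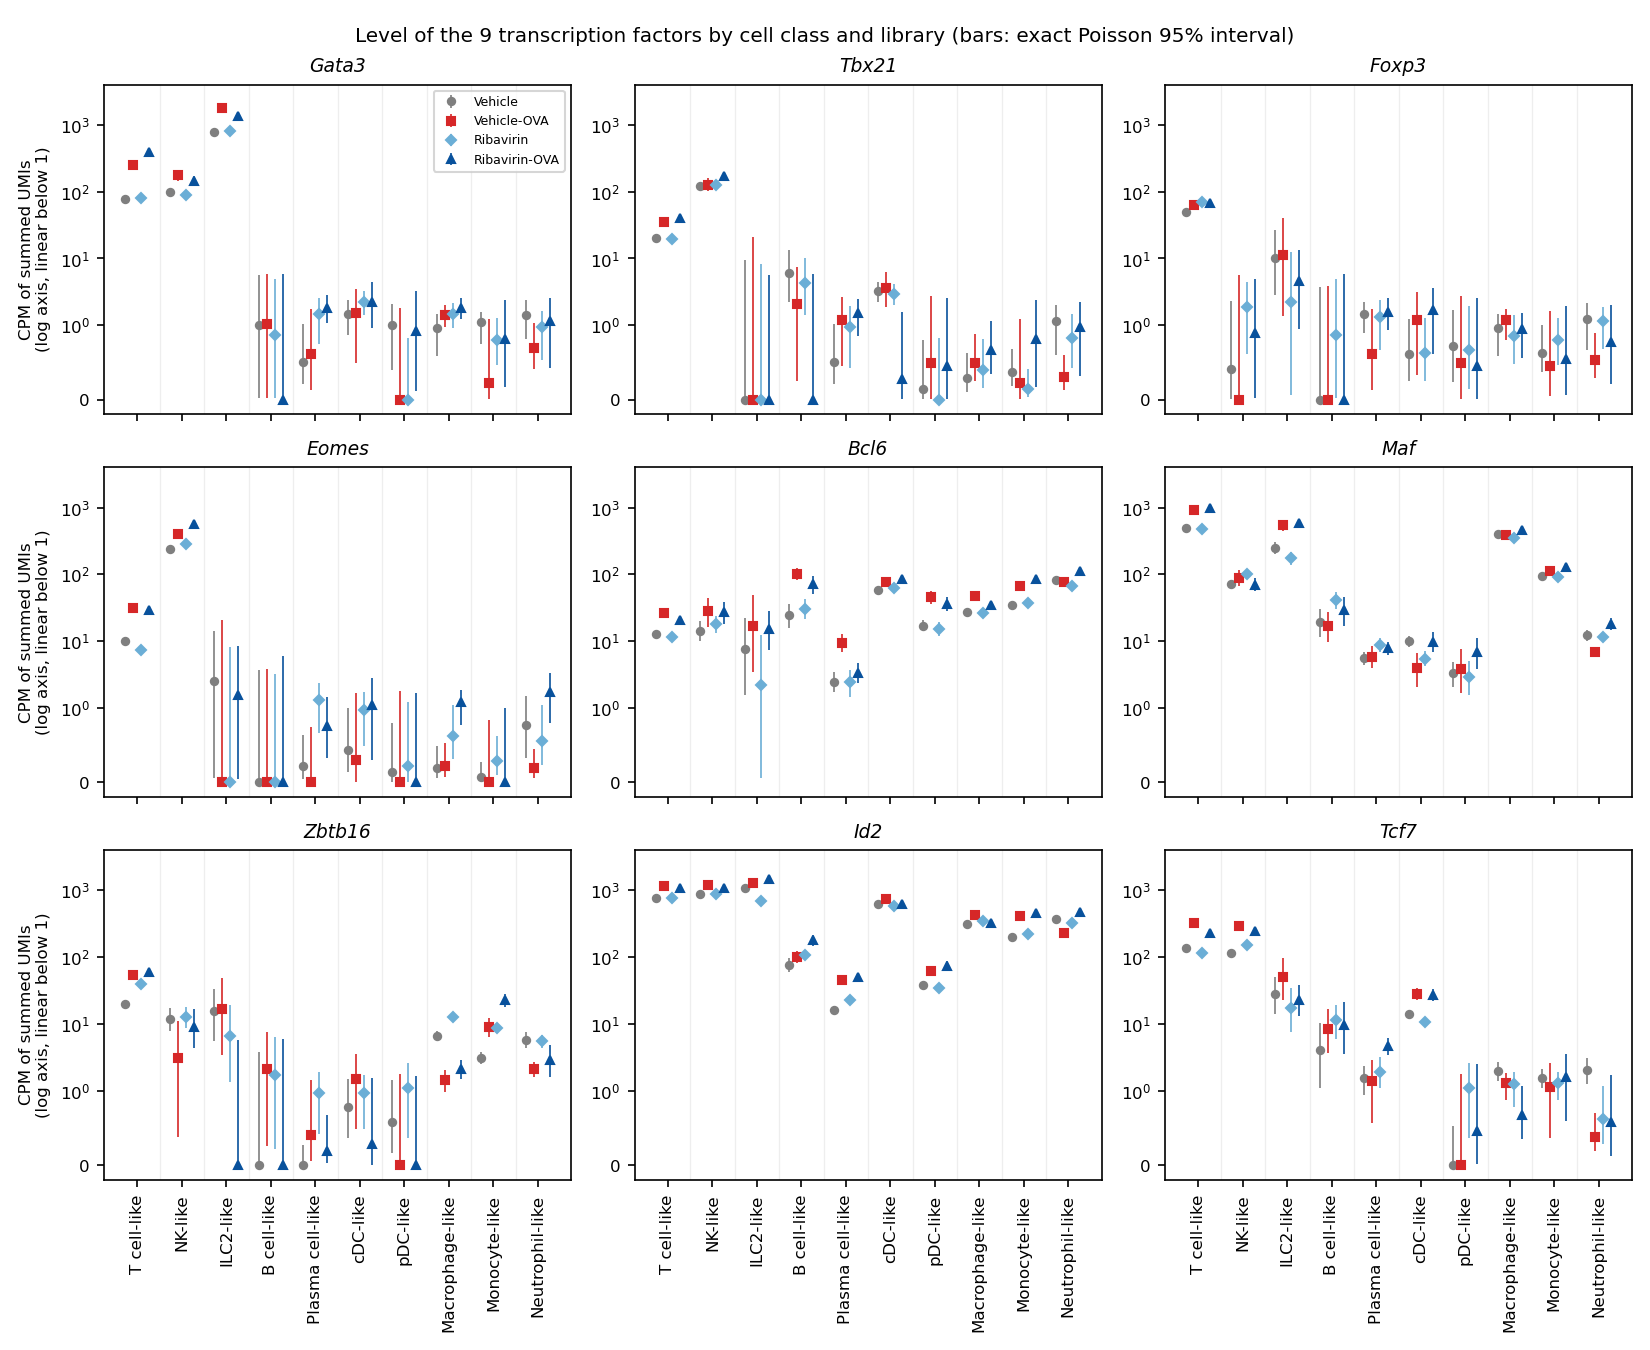
Level of each factor in CPM of summed UMIs (vertical log axis, linear below 1) in 10 cell classes (horizontal axis) of the 4 libraries (colours and symbols), with exact Poisson intervals at 95% as bars. Gata3, Tbx21, Foxp3, Eomes and Tcf7 stood out in T cell-like, NK-like or ILC2-like cells, whereas Bcl6, Maf and Id2 were also high in myeloid classes.

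Neutrophil-like cells served as the background for RNA that reaches droplets from other cells, since they should lack most of these factors. After thinning every cell to 1000 UMIs, at most 0.123% of Neutrophil-like cells had a UMI of Gata3, Tbx21, Foxp3, Eomes or Tcf7 in any library. The corresponding shares in T cell-like cells were 7.94% to 21.4% for Gata3, 2.14% to 4.39% for Tbx21, 3.75% to 5.57% for Foxp3, 0.595% to 1.63% for Eomes and 12.2% to 25.2% for Tcf7. Without thinning, 27.3% to 53.3% of T cell-like cells and 0.227% to 0.358% of Neutrophil-like cells had a Gata3 UMI. Median depths were 4057 to 5228.5 UMIs in T cell-like and 2054.5 to 3154.5 UMIs in Neutrophil-like cells. Thinning kept 6132 of 6209, 1475 of 1501, 4037 of 4037 and 1846 of 1868 T cell-like cells in the order Vehicle, Vehicle-OVA, Ribavirin and Ribavirin-OVA.

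The difference with OVA was read in 2 pairs of libraries, without and with ribavirin. In T cell-like cells 4 of the 9 factors were past 2-fold for Vehicle-OVA over Vehicle, all of them higher in the OVA library, namely Gata3, Eomes, Zbtb16 and Tcf7. Of all 12010 genes read there 15.7% were past 2-fold. For Ribavirin-OVA over Ribavirin 4 of 9 were again past 2-fold and higher, namely Gata3, Tbx21, Eomes and Maf, against 12.4% of all genes. Ribavirin over Vehicle gave 0 of 9 against 0.749% of all genes, and Ribavirin-OVA over Vehicle-OVA 0 of 9 against 2.47%. The class was made of different clusters in different shares. The cluster led by Il17a and Il17f held 2593 of 6209 cells in Vehicle, 356 of 1501 in Vehicle-OVA, 1268 of 4037 in Ribavirin and 389 of 1868 in Ribavirin-OVA, and the regulatory cluster 692, 277, 543 and 357. A cluster of 102 cells held 101 from Ribavirin. The median log2 ratio of the 9 factors was 0.99 and 0.96 in the 2 OVA pairs, beside 0.39 and 0.37 for all genes.

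These shifts of the whole gene list set the scale for the factors. Of all genes past 2-fold in T cell-like cells, 82.0% were higher with OVA in the Vehicle pair and 77.8% in the Ribavirin pair, but 31.1% and 21.2% once ratios were centred on the median gene. In NK-like cells the same shares moved from 70.4% and 68.7% to 35.5% and 30.6%, and in ILC2-like cells from 72.5% and 72.9% to 44.7% and 44.6%. Long transcripts gained more than short ones. The median log2 ratio of the 10% of genes with the longest transcripts was 0.75 in the Vehicle pair and 0.70 in the Ribavirin pair, and that of the 10% with the shortest −0.45 and −0.44. Mitochondrial genes summed to 31648 and 31309 CPM in the T cell-like cells of the libraries without OVA and to 40797 and 43951 CPM in those with OVA. Neutrophil markers summed to 437, 1328, 624 and 344 CPM in the order Vehicle, Vehicle-OVA, Ribavirin and Ribavirin-OVA, and all 10 of them had UMIs in each. Mast cell markers summed to 15.7 and 19.4 CPM without OVA, with 4 of 7 above 0, and to 165 and 232 CPM with it, with 7 and 6 of 7 above 0. The part of these differences in the ratios was not tested. Relative to the median gene, Gata3 kept a log2 ratio of 1.28 and 1.89 in the 2 pairs and Eomes 1.16 and 1.51, and Zbtb16 one of 1.01 in the Vehicle pair. Tcf7 then fell short of 2-fold at 0.82 and 0.59, and so did Tbx21 at 0.67 and Maf at 0.66 in the Ribavirin pair.

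**Figure D2:**
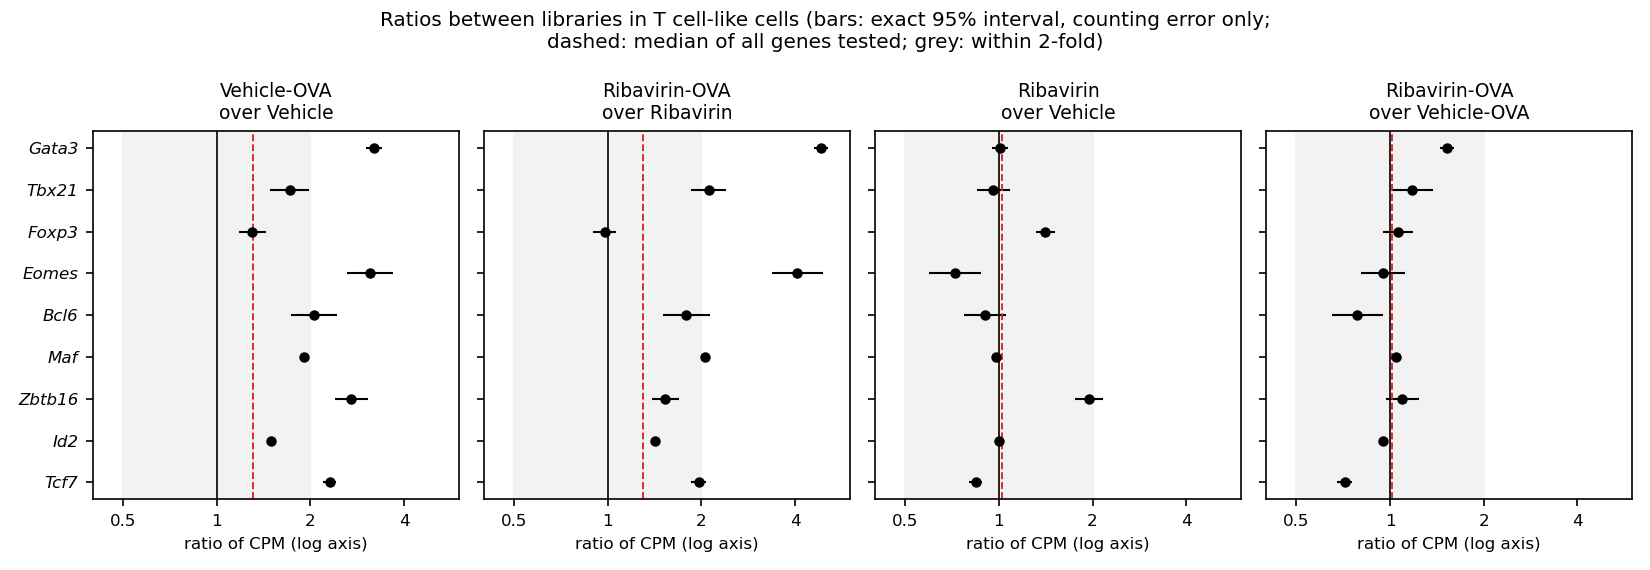
Ratio of CPM between libraries in T cell-like cells (horizontal log axis) for the 9 factors (rows) in 4 pairs of libraries (panels), with exact intervals at 95% for counting error, the median of all genes as a dashed line and the zone within 2-fold in grey. Gata3 and Eomes lay to the right of the grey zone in both OVA pairs and all 9 factors lay within it in the 2 pairs that compare ribavirin with vehicle. Foxp3 lay close to the dashed line in the Vehicle pair and to its left in the Ribavirin pair.

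In T cell-like cells Gata3 had the highest OVA ratio of the 9 factors in both pairs. Its level there was 78.8 CPM (Vehicle), 253 CPM (Vehicle-OVA), 79.4 CPM (Ribavirin) and 385 CPM (Ribavirin-OVA). The 2 libraries without OVA were level and both OVA libraries stood well above them. The ratio was 3.21 (3.02 to 3.40) in the Vehicle pair and 4.85 (4.60 to 5.12) in the Ribavirin pair, and 1.52 (1.45 to 1.61) between the 2 OVA libraries. ILC2-like cells had the highest Gata3 level of the classes shown in the plot of levels by class, with 768, 1805, 811 and 1364 CPM in the same order. That is a ratio of 2.35 (2.00 to 2.76) in the Vehicle pair, from 320 UMIs in only 41 Vehicle-OVA cells, and of 1.68 (1.49 to 1.90) in the Ribavirin pair. NK-like cells had 97.4, 175, 88.0 and 145 CPM, within 2-fold in both pairs.

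Part of the Gata3 in the OVA libraries lay in cells that formed a subcluster there alone when each library was subclustered by itself. A subcluster led by Il4, Il13 and Calca held 48 cells in Vehicle-OVA and 98 in Ribavirin-OVA, of which the second passed the marker rule for type 2 helper T-like cells and the first did not. Of these cells 12.5% in Vehicle-OVA and 0% in Ribavirin-OVA came from the ILC2-like class. Every one of these cells had a Gata3 UMI. They made up 2.91% and 4.61% of the T, NK and ILC2-like cells of their library and held 30.2% and 36.3% of their Gata3 UMIs, at 1567 and 1922 CPM. Their Gata3 level was 4.86-fold (4.15 to 5.71) and 4.12-fold (3.71 to 4.60) that of the Regulatory T-like subcluster of the same library. Against the ILC2-like subcluster it was 0.803-fold (0.695 to 0.932) in Vehicle-OVA and 1.46-fold (1.35 to 1.58) in Ribavirin-OVA, so their order differed between the libraries. Their Maf level set them further apart, at 7.33-fold (5.41 to 10.2) and 4.26-fold (3.81 to 4.77) that of ILC2-like cells. These cells were deep, with medians of 8965 and 9285.5 UMIs, as were the 69 ILC2-like cells of Ribavirin-OVA at 9143 UMIs.

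Gata3 was also higher with OVA in several T cell subclusters that did not carry type 2 cytokines as leading genes. In the subcluster led by Il17a, with 1056, 205, 903 and 166 cells, it went from 64.8 to 139 CPM in the Vehicle pair and from 62.0 to 131 CPM in the Ribavirin pair, ratios of 2.14 (1.77 to 2.59) and 2.11 (1.71 to 2.59). In the Cd8b1-led cells the ratios were 2.43 (1.83 to 3.21) and 3.21 (2.25 to 4.69). The second ratio set unlike cells side by side. The Ribavirin-OVA set joined 2 subclusters with 16.4% of cells from the NK-like class, the Ribavirin set was 1 subcluster with 0%. Regulatory T-like cells had 136, 323, 134 and 466 CPM, ratios of 2.38 (1.99 to 2.84) and 3.49 (3.01 to 4.04). The Dapl1-led cells were not higher, with 48.5 CPM (Vehicle) and 41.9 CPM (Vehicle-OVA) on 14 and 10 UMIs. The median gene of the Regulatory T-like subcluster stood at 1.22 and 1.24, and that of the Il17a-led one at 1.29 and 1.28. T cell-like cells without the whole regulatory cluster gave 2.11 (1.96 to 2.28) and 2.78 (2.60 to 2.98), not scaled by the median gene. In the whole T cell-like class the median gene stood at 0.39 and 0.37 on the log2 scale.

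Of the 20 genes in the type 2 list 17 could be read in T cell-like cells. Of all genes read there, 15.7% were past 2-fold in the Vehicle pair, 12.4% in the Ribavirin pair and 2.47% between the 2 OVA libraries. Past 2-fold were 9 higher and 0 lower in the Vehicle pair and 11 higher and 0 lower in the Ribavirin pair, and the medians of the list were 1.37 and 2.61 on the log2 scale. Ccr4, Ccr8, Areg, Plac8, Furin and Cd200r1 were past 2-fold in neither pair. Il13 had 0.228 CPM (Vehicle), 37.8 CPM (Vehicle-OVA), 0.509 CPM (Ribavirin) and 145 CPM (Ribavirin-OVA). Il4 had 7, 205, 12 and 1013 UMIs in that order. Between the 2 OVA libraries 6 of the 17 were past 2-fold, all higher in Ribavirin-OVA. For Ribavirin over Vehicle it was 0 of 17, against 0.749% of all genes. Il10, an anti-inflammatory cytokine made by several T cell types, was at 18.0, 272, 31.8 and 199 CPM. ILC2 markers, which share Il13 and Il1rl1 with type 2 T cells, summed to 153, 645, 132 and 1094 CPM in the T cell-like class, with all 9 above 0 in each. Their part in the Gata3 values was not tested.

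Tbx21 and Eomes, the T-box pair, were highest in NK-like cells. Tbx21 had 120, 127, 124 and 173 CPM there in the order Vehicle, Vehicle-OVA, Ribavirin and Ribavirin-OVA, and the T cell-like class 20.2, 34.7, 19.4 and 41.0 CPM. ILC2-like cells held 0 Tbx21 UMIs in every library, which allows up to 4.63 to 16.9 CPM at 3 UMIs. Eomes had 237, 395, 280 and 561 CPM in NK-like cells and 10.1, 31.3, 7.30 and 29.7 CPM in the T cell-like class. B cell-like cells held 0 Eomes UMIs, which allows up to 2.61 to 4.82 CPM. The few cells named Olfactory neuron-like also had Eomes, with 10, 10, 38 and 23 UMIs or 18.7 to 47.8 CPM.

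In NK-like cells 8 of the 9 factors could be read, all but Foxp3. For Vehicle-OVA over Vehicle 2 were past 2-fold, against 17.8% of all genes. These were Tcf7, higher at 2.51-fold (2.08 to 3.04), and Zbtb16, lower on 2 UMIs against 29 with an interval of 0.0301 to 1.03. For Ribavirin-OVA over Ribavirin it was 1, against 11.8%, namely Eomes at 2.01-fold (1.80 to 2.23). Ribavirin over Vehicle gave 0 against 1.08%. Ribavirin-OVA over Vehicle-OVA gave 1 against 6.29%, Zbtb16 on 10 UMIs against 2. Tbx21 had ratios of 1.06 (0.821 to 1.36) and 1.397 (1.16 to 1.67) in the OVA pairs, and in the Vehicle pair the direction turned when scaled by the median gene, to −0.21 on the log2 scale. NK markers in the T cell-like class summed to 294, 422, 208 and 234 CPM, with Klra4 and Klra8 at 0 UMIs in Vehicle-OVA, and their part in the T-box values was not tested. In that class Eomes had ratios of 3.11 (2.62 to 3.68) and 4.07 (3.38 to 4.91). Tbx21 had 1.72 (1.49 to 1.98) and 2.11 (1.86 to 2.41).

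In every library 2 NK-like subclusters were found, and some of the factors divided between them. In Vehicle-OVA 21.8% of the Klra4-led cells came from the T cell-like class, in the other 3 libraries at most 0.651%. The cells led by Klra4 (307, 110, 314 and 100) held 154, 391, 190 and 245 CPM of Tcf7. Those led by Serpinb9b (184, 19, 163 and 44 cells) held 10.7 CPM in Vehicle and 32.5 CPM in Ribavirin, and 0 UMIs in both OVA libraries. The ratio of Serpinb9b-led over Klra4-led cells was 0.0693 (0.0251 to 0.154) in Vehicle and 0.172 (0.103 to 0.270) in Ribavirin, and the upper ends of the intervals were 0.120 in Vehicle-OVA and 0.0817 in Ribavirin-OVA. Id2 went the other way in each library, at 1.83, 1.99, 1.73 and 1.52-fold, with the lowest interval at 1.33 to 1.74. Tbx21 was also higher in Serpinb9b-led cells, at 2.31-fold (1.76 to 3.02), 1.71-fold (1.32 to 2.20) and 2.62-fold (1.90 to 3.595) in Vehicle, Ribavirin and Ribavirin-OVA. In Vehicle-OVA, on 13 UMIs in 19 cells, the interval of 0.709 to 2.52 included 1. Eomes was lower in them, at 0.638, 0.644 and 0.720-fold in those 3 libraries, and at 0.835-fold (0.525 to 1.27) in Vehicle-OVA. Gata3 stood at 0.853-fold (0.601 to 1.19) in Vehicle and 0.994-fold (0.528 to 1.73) in Vehicle-OVA. In Ribavirin it was at 0.607-fold (0.398 to 0.902) and in Ribavirin-OVA at 1.09-fold (0.695 to 1.65). The intervals of Zbtb16 included 1 in every library.

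**Figure D3:**
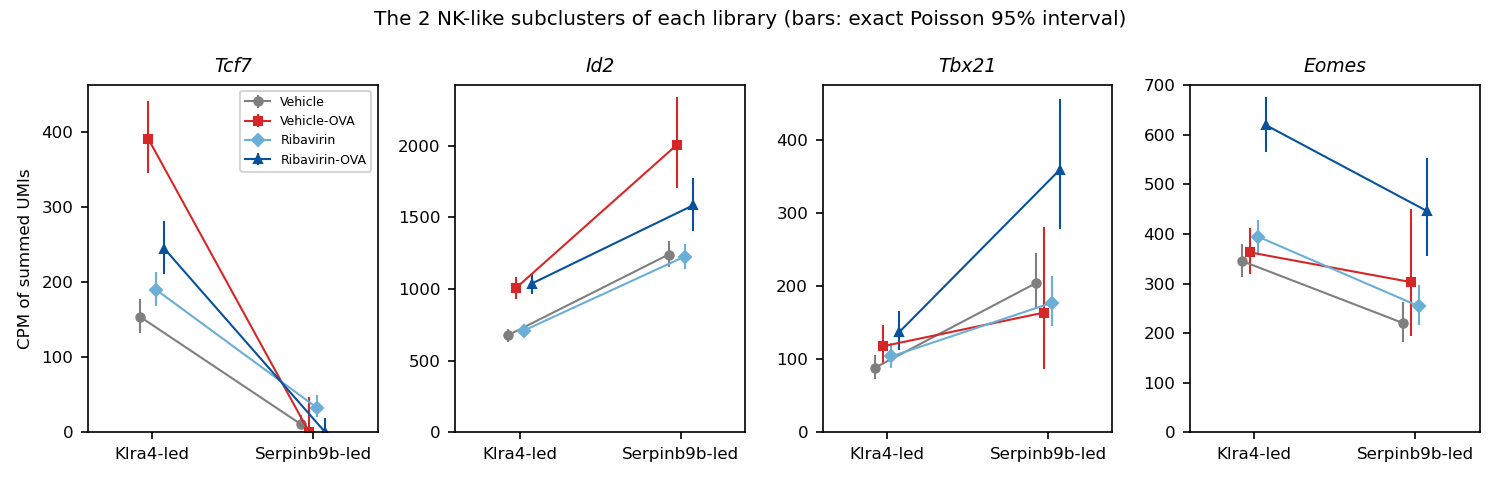
Level of Tcf7, Id2, Tbx21 and Eomes in CPM (vertical axes from 0) in the Klra4-led and Serpinb9b-led NK-like subclusters (horizontal axis) of each library, joined by a line per library, with exact Poisson intervals at 95% as bars. Lines for Tcf7 drop to between 0 and 32.5 CPM and those for Id2 climb in all 4 libraries, and the widest bars belong to the 19 Serpinb9b-led cells of Vehicle-OVA.

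Among T cells, the Cd8b1-led ones had Eomes at 71.4, 203, 26.7 and 249 CPM. The Ribavirin-OVA set joined 2 subclusters, and 16.4% of its cells came from the NK-like class, compared with at most 2.22% in the other 3 libraries. A further set led by Klra1 and Xcl1 existed in Vehicle and Ribavirin alone, with 291 and 194 cells drawn from both the T cell-like and NK-like classes. It had Tbx21 at 75.2 and 100.4 CPM and Tcf7 at 215 and 222 CPM, and Eomes at 37.6 and 29.8 CPM. Xcl1 itself, a chemokine gene of the type 1 list, had levels of 45.0 and 65.4 CPM in the T cell-like class without OVA, and of 14.0 and 13.5 CPM with it. Of the 20 type 1 genes, 6 were higher and 1 lower (Xcl1) past 2-fold in the Vehicle pair, and 3 higher (Ccl3, Fasl and Klrg1) and 1 lower (Xcl1) in the Ribavirin pair. Genes given in brackets beside such small counts were chosen after their values were seen. No type 1 gene passed for Ribavirin over Vehicle, where 0.749% of all genes did. For Ribavirin-OVA over Vehicle-OVA 2 chemokine genes were lower (Ccl3 and Ccl4), where 2.47% of all genes were past 2-fold. The medians of the list were 0.72 and 0.63 in the OVA pairs, where 15.7% and 12.4% of all genes were past 2-fold.

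Foxp3 differed least with OVA in the T cell-like class as a whole. Its level was 48.9, 63.6, 68.9 and 67.4 CPM, with ratios of 1.30 (1.17 to 1.44) and 0.979 (0.898 to 1.07) in the OVA pairs and 1.41 (1.31 to 1.51) for Ribavirin over Vehicle. Scaled by the median gene, the ratio of the Vehicle pair turned to −0.01 on the log2 scale and that of the Ribavirin pair stood at −0.41. Most of it lay in regulatory cells. The Regulatory T-like subcluster made up 7.45% to 10.3% of the T, NK and ILC2-like cells of a library and held 80.3% to 85.5% of their Foxp3 UMIs. Cycling subclusters held a further 163, 17, 185 and 74. In that subcluster 72.8% to 88.2% of cells had a Foxp3 UMI, against 0.187% to 0.312% of Neutrophil-like cells.

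The direction for Foxp3 within regulatory cells depended on where their border was drawn. In the Regulatory T-like cluster of all cells, with 692, 277, 543 and 357 cells, Foxp3 was at 415 CPM (Vehicle), 285 CPM (Vehicle-OVA), 482 CPM (Ribavirin) and 261 CPM (Ribavirin-OVA). Both OVA libraries were below both others, at 0.686-fold (0.618 to 0.762) and 0.542-fold (0.494 to 0.594). The subcluster of the same name, made within each library with 613, 123, 490 and 161 cells, had 457, 729.9, 527 and 772 CPM. Here both OVA libraries were above both others, at 1.60-fold (1.43 to 1.78) and 1.46-fold (1.33 to 1.61), where the median gene stood at 1.22 and 1.24. The makeup of the larger cluster differed with OVA. Cells of the Regulatory T-like subcluster formed 86.0% of it in Vehicle and 86.7% in Ribavirin, but 44.4% in Vehicle-OVA and 44.8% in Ribavirin-OVA. The Il4 and Il13-led cells formed 15.2% and 27.5% of it in the OVA libraries, and a subcluster led by Tbc1d4 and Il21 27.8% and 19.6%. Foxp3 in those sets was low, with 18 UMIs (37.2 CPM) and 1 UMI (0.948 CPM) in the Il4-led cells and 24.5 and 14.9 CPM in the Tbc1d4-led ones.

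**Figure D4:**
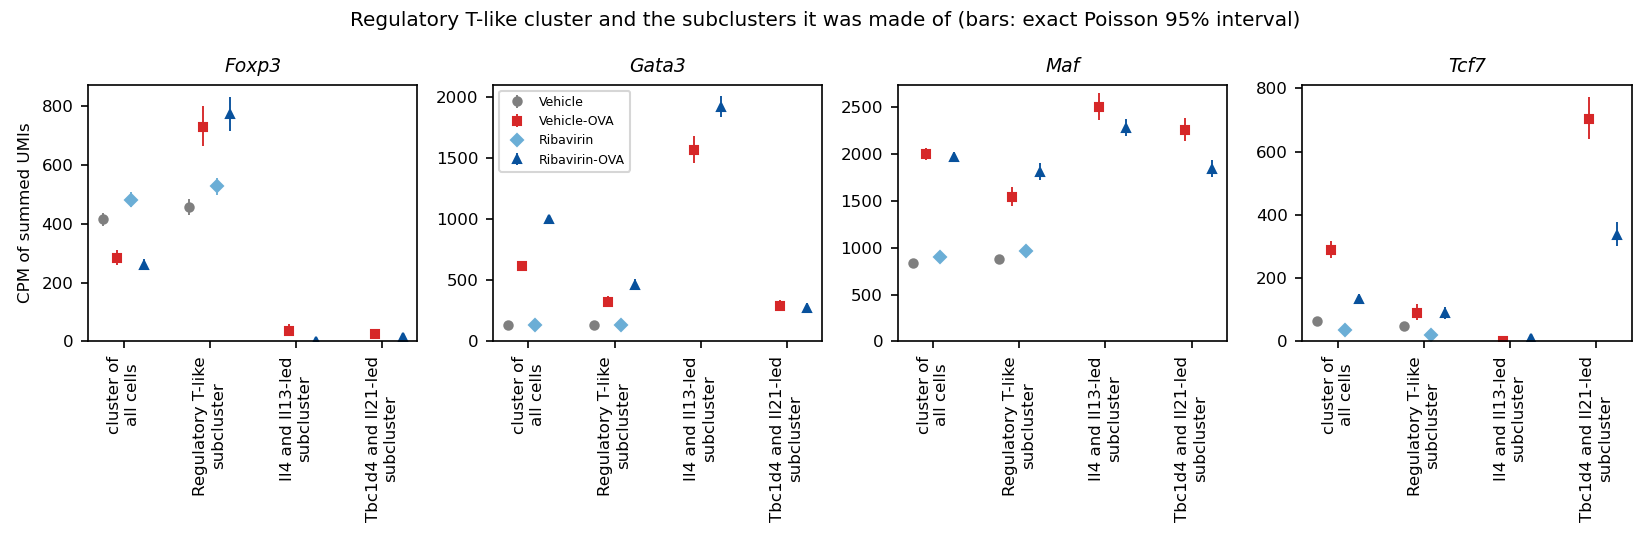
Level of Foxp3, Gata3, Maf and Tcf7 in CPM (vertical axes from 0) in the Regulatory T-like cluster made from all cells and in the 3 subclusters that made up most of it, by library, with exact Poisson intervals at 95% as bars. For Foxp3 the OVA libraries lie below the others in the cluster of all cells and above them in the Regulatory T-like subcluster, and the Il4 and Il13-led cells lie near 0.

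Other factors in the Regulatory T-like subcluster were also higher in the OVA libraries. Maf had 881, 1546, 962 and 1811 CPM, ratios of 1.76 (1.63 to 1.89) and 1.88 (1.77 to 2.01). Tcf7 was low at 49.5, 91.2, 21.6 and 88.4 CPM, and Bcl6 had 10.2, 39.1, 6.8 and 39.7 CPM on 17 to 35 UMIs. In single T cell-like cells thinned to 1000 UMIs, a Foxp3 UMI went with more Gata3 and Maf and less Tcf7. Among the 248, 72, 240 and 81 cells with Foxp3, 15.7%, 25.0%, 13.8% and 33.3% also had Gata3, against 7.5%, 16.7%, 7.7% and 21.4% of the cells without it. Maf was found in 53.6%, 66.7%, 52.1% and 66.7% against 32.8%, 40.7%, 31.1% and 44.5%. Tcf7 was found in 2.0%, 4.2%, 1.7% and 3.7% against 13.7%, 25.5%, 11.6% and 18.9%. The binomial intervals at 95% did not overlap for Maf or Tcf7 in any library, and for Gata3 they overlapped in both OVA libraries. These intervals take each cell as a unit and leave out the spread between animals. The split was read for the 9 factors only, so how many of all genes would part in this way is not known. Without thinning, Gata3 was found in 40.4% to 74.5% of the cells with Foxp3 and in 25.8% to 51.2% of the others. Of the 22 genes of the regulatory list 9 were past 2-fold higher and 0 lower in the Vehicle pair and 7 higher and 0 lower in the Ribavirin pair, with medians of 0.88 and 0.68. None of the 22 passed 2-fold for Ribavirin over Vehicle or for Ribavirin-OVA over Vehicle-OVA, where 0.749% and 2.47% of all genes did. Of all genes read in T cell-like cells, 15.7% and 12.4% were past 2-fold in the OVA pairs. Il2ra, the high-affinity IL-2 receptor chain, had 81.4, 353, 104 and 297 CPM, and Entpd1, the ectonucleotidase CD39, 13.04, 49.9, 15.4 and 41.4 CPM.

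Maf had similar levels in T cells and macrophages without OVA. T cell-like cells had 486, 931, 474 and 975 CPM and Macrophage-like cells 401, 387, 350 and 469 CPM. The OVA libraries stood above the others in T cell-like cells at 1.91-fold (1.86 to 1.97) and 2.06-fold (2.00 to 2.11), but in Macrophage-like cells at 0.965-fold (0.937 to 0.995) and 1.34-fold (1.30 to 1.39). Most Macrophage-like cells lay in a Ccl12 and Ccl7-led cluster without OVA and in a Ccl24 and Arg1-led one with it, so the latter ratios set different cell populations side by side. Macrophage markers in the T cell-like class summed to 348, 253, 417 and 316 CPM, lower in each OVA library than in its partner. Within T cells the top of the range was held by the Il4 and Il13-led cells, with 2508 and 2284 CPM, and the Tbc1d4 and Il21-led cells, with 2261 and 1843 CPM. In the Il17a-led cells Maf had 691, 1056, 704 and 1079.9 CPM, ratios of 1.53 (1.43 to 1.63) and 1.53 (1.43 to 1.64). NK-like cells had 71.5, 88.3, 101 and 70.2 CPM. The 2 OVA pairs pointed in opposite directions there, at 1.24-fold (0.8996 to 1.68) and 0.694-fold (0.532 to 0.896), and when scaled by the median gene the first was at 0.00 on the log2 scale.

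ILC2-like cells allowed 3 of the 9 factors to be read, Gata3, Maf and Id2. For Vehicle-OVA over Vehicle 2 of 3 were past 2-fold and higher, Gata3 and Maf, against 28% of all genes. For Ribavirin-OVA over Ribavirin 2 of 3 were, Maf and Id2, against 20.3%. Ribavirin over Vehicle gave 0 of 3 against 6.12%, and Ribavirin-OVA over Vehicle-OVA 0 of 3 against 10.9%. Maf had 249, 542, 176 and 577 CPM in this class, ratios of 2.17 (1.62 to 2.91) and 3.27 (2.56 to 4.22). Id2 had 1065, 1297, 683 and 1476 CPM, ratios of 1.22 (1.03 to 1.43) and 2.16 (1.90 to 2.46). Scaled by the median gene, Id2 turned to −0.04 on the log2 scale in the Vehicle pair. T cell markers summed to 739, 970, 604 and 1023 CPM in ILC2-like cells, higher in each OVA library, with 1 of 10, Cd5, at 0 UMIs in Vehicle-OVA. NK markers summed to 28.2, 129.7, 50.7 and 602 CPM with 5, 1, 2 and 2 of 10 above 0, and Ncr1, the NK receptor NKp46, was at 0 in all 4. The part of either in the values of this class was not tested.

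Bcl6 was higher in Neutrophil-like, cDC-like, Monocyte-like, Epithelial-like and B cell-like cells than in T cell-like cells of each library. Neutrophil-like cells had 82.7, 75.8, 66.9 and 112 CPM and cDC-like cells 57.5, 76.2, 62.8 and 84.4 CPM. Monocyte-like cells had 34.4, 66.5, 37.2 and 84.1 CPM and Epithelial-like cells 51.5, 61.0, 45.8 and 74.2 CPM. T cell-like cells had 12.8, 26.3, 11.5 and 20.7 CPM, ratios of 2.06 (1.74 to 2.44) and 1.79 (1.4997 to 2.14) in the OVA pairs, so that the first was at 0.99 on the log2(CPM + 1) scale and not counted as past 2-fold. In B cell-like cells, where Bcl6 is known from the germinal centre, the level was 24.4 CPM (Vehicle), 101 CPM (Vehicle-OVA), 30.5 CPM (Ribavirin) and 70.7 CPM (Ribavirin-OVA). Both OVA libraries exceeded the other 2, at 4.13-fold (2.62 to 6.75) on 96 against 24 UMIs and 2.32-fold (1.45 to 3.73) on 44 against 35. Higher Bcl6 with OVA was not confined to B cell-like cells. In the Vehicle and Ribavirin pairs the ratios were 2.65 and 2.38 in pDC-like and 1.94 and 2.26 in Monocyte-like cells. Plasma cell-like cells had 3.84 and 1.395, the second with an interval that included 1. Neutrophil-like cells had 0.915 and 1.67, so the 2 pairs differed in direction there. Plasma cell-like cells had 2.4 to 9.5 CPM. Among T cells the Tbc1d4 and Il21-led set of the OVA libraries, with 94 and 101 cells, had 94.9 and 42.5 CPM of Bcl6. It also had 704 and 338 CPM of Tcf7 and 293 and 274 CPM of Gata3. In Il17a-led cells Bcl6 had 17.4, 34.2, 14.2 and 43.2 CPM, ratios of 1.97 (1.33 to 2.89) and 3.04 (2.04 to 4.51). These subclusters were not drawn alike. The Il17a and Il17f-led cluster of all cells, drawn alike in all libraries, had Bcl6 at 16.6, 32.2, 14.5 and 24.4 CPM. Of the follicular helper list 14 of 15 genes could be read. In the Vehicle pair 6 were past 2-fold higher and 1 lower (Cd40lg), and in the Ribavirin pair 5 higher (Il4, Pdcd1, Cd200, Il6ra and Tnfsf8) and 0 lower. Ribavirin over Vehicle gave 0, and Ribavirin-OVA over Vehicle-OVA 1 higher (Il4) and 1 lower (Cxcr5), against 0.749% and 2.47% of all genes. The medians of the list were 0.88 and 0.79 in the OVA pairs, where 15.7% and 12.4% of all genes read in T cell-like cells were past 2-fold. Pdcd1, which encodes the checkpoint receptor PD-1, had 55.9, 181, 103 and 212 CPM, and Il6ra, the IL-6 receptor chain, 15.1, 46.8, 18.2 and 46.0 CPM.

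Most Zbtb16 UMIs of the T, NK and ILC2-like cells lay in a subcluster led by Kcnc1 and Plekhg1. It was found in each library, with 801, 352, 712 and 426 cells, and had 127, 232, 152 and 230.5 CPM. It held 63.5%, 89.6%, 57.2% and 72.2% of these UMIs in 11.5%, 21.3%, 15.02% and 20.04% of those cells. Cd163l1-led cells, found in 3 libraries, had 95.4 CPM (Vehicle), 119 CPM (Ribavirin) and 242 CPM (Ribavirin-OVA). Il17a-led cells had 8, 2, 4 and 1 Zbtb16 UMIs, or 1.49, 1.71, 0.824 and 0.983 CPM. The ratio of Kcnc1-led over Il17a-led cells was thus 85.3 (42.9 to 199) in Vehicle and 185 (71.8 to 681) in Ribavirin, and the lower ends of the intervals were 37.3 in Vehicle-OVA and 41.9 in Ribavirin-OVA. Maf ran against this, at 0.565, 0.516, 0.477 and 0.529-fold in Kcnc1-led compared with Il17a-led cells, and all 4 intervals ended at or below 0.602.

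Zbtb16 was also higher with OVA in T cell-like cells as a whole. The class had 20.04, 54.3, 39.0 and 59.6 CPM, ratios of 2.71 (2.40 to 3.07) and 1.53 (1.38 to 1.69). The Kcnc1-led cells alone gave 1.82 (1.58 to 2.09) and 1.51 (1.34 to 1.71). These sets were not drawn alike, since Vehicle split off 366 Cd163l1-led cells and Vehicle-OVA had no such subcluster. The cluster of all cells led by Cd163l1 and Blk, drawn alike in all libraries, had Zbtb16 at 114, 231, 136 and 230.5 CPM. It held 1178 of the 6209 T cell-like cells in Vehicle and 371 of 1501 in Vehicle-OVA. The Il17a and Il17f-led cluster of all cells held 2593 and 356 of them. In the Ribavirin pair the class ratio turned to −0.05 on the log2 scale when scaled by genes of like transcript length. For Ribavirin over Vehicle the class ratio was 1.95 (1.75 to 2.16), the highest of the 9 factors in that pair and short of 2-fold. The Cd163l1 and Blk-led cluster held 1055 of the 4037 T cell-like cells in Ribavirin. In the same pair Zbtb16 stood at 2.78-fold (2.14 to 3.65) in Monocyte-like and 2.58-fold (1.25 to 6.16) in Epithelial-like cells. NK-like cells gave 1.07 (0.632 to 1.82).

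Macrophage-like cells went the other way. Zbtb16 was low there, at 6.62 CPM (Vehicle), 1.44 CPM (Vehicle-OVA), 12.8 CPM (Ribavirin) and 2.13 CPM (Ribavirin-OVA). Both OVA libraries were below both others, at 0.217-fold (0.143 to 0.321) on 32 against 138 UMIs and 0.167-fold (0.115 to 0.236) on 38 against 224. In Monocyte-like cells, with 3.1, 9.0, 8.7 and 22.5 CPM, the OVA libraries stood at 2.91-fold (1.94 to 4.29) and 2.59-fold (1.98 to 3.38) of their partners. Both classes lay in different clusters with and without OVA. A cluster led by Ccl24 and Arg1 held 39, 1995, 75 and 1541 of the 2198, 2203, 1749 and 1737 Macrophage-like cells, and one led by Ccl12 and Ccl7 held 1802, 98, 1457 and 99. A cluster led by Ly6i and Cxcl9 held 2661, 244, 1786 and 98 of the 3060, 478, 2322 and 377 Monocyte-like cells. A difference in level within a cell population and a change of populations cannot be told apart in these class ratios.

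**Figure D5:**
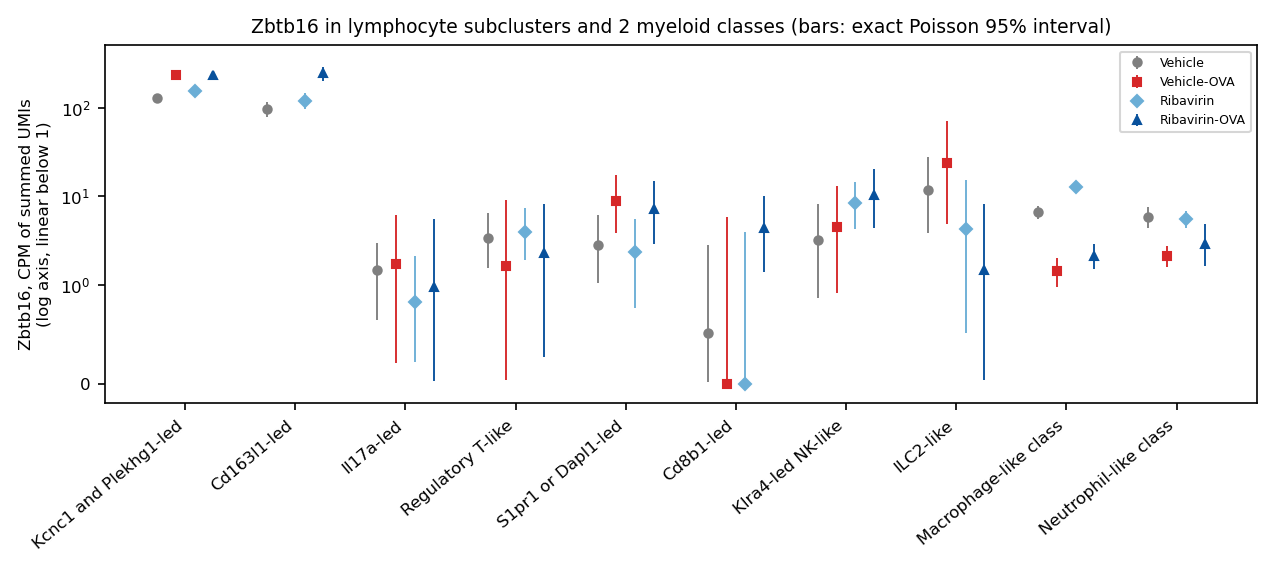
Level of Zbtb16 in CPM (vertical log axis, linear below 1) in lymphocyte subclusters and in the Macrophage-like and Neutrophil-like classes (horizontal axis) of the 4 libraries, with exact Poisson intervals at 95% as bars. Kcnc1 and Plekhg1-led and Cd163l1-led cells lie between 95.4 and 242 CPM, Il17a-led cells at or under 1.71 CPM, and the 2 OVA libraries lie below the other 2 in both myeloid classes.

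Id2 was broad and Tcf7 narrow. Id2 had 769, 1148, 769 and 1089 CPM in T cell-like, 872, 1215, 881 and 1063 CPM in NK-like and 625, 748, 591 and 617 CPM in cDC-like cells. B cell-like cells had 76.3 to 178 CPM, pDC-like cells 34.3 to 73.8 CPM and Plasma cell-like cells less in each library. T cell-like, NK-like and ILC2-like cells were thus of one order, and their place relative to each other changed between libraries. The OVA ratios of Id2 in T cell-like cells were 1.49 (1.46 to 1.53) and 1.42 (1.38 to 1.45), or 0.19 and 0.13 on the log2 scale relative to the median gene. Of the 8 other genes of the E protein and Id group 6 could be read. The count past 2-fold was 0 in both OVA pairs and for Ribavirin over Vehicle, and 1 was higher in Ribavirin-OVA than in Vehicle-OVA (Lyl1). In the 2 pairs of ribavirin with vehicle 0.749% and 2.47% of all genes were past 2-fold. The medians of this list were 0.69 and 0.72 in the OVA pairs, where 15.7% and 12.4% of all genes were past 2-fold.

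Tcf7 had 138, 320, 117 and 229 CPM in T cell-like and 115, 288, 150.2 and 245 CPM in NK-like cells, and 17.6 to 50.8 CPM in ILC2-like cells on 8 to 15 UMIs. The T cell-like ratios were 2.31 (2.20 to 2.43) and 1.96 (1.86 to 2.07), and Ribavirin-OVA stood at 0.715-fold (0.677 to 0.754) of Vehicle-OVA. Cells led by S1pr1 or Dapl1, genes of naive and recirculating T cells, had the most Tcf7 of the sets found in all 4 libraries, at 356, 913, 386 and 845 CPM. They had the least Id2 of those T cell sets, at 384, 439.9, 382 and 626 CPM. A Dapl1-led subcluster of its own in Vehicle and Vehicle-OVA, with 80 and 52 cells, went further, with 551 and 1134 CPM of Tcf7 and 166 and 230.2 CPM of Id2. The Il4 and Il13-led cells were at the other end, with 1 and 13 Tcf7 UMIs, or 2.1 and 12.3 CPM. In the Il17a-led cells Tcf7 went from 74.5 to 305 CPM in the Vehicle pair and from 103 to 274 CPM in the Ribavirin pair, ratios of 4.09 (3.54 to 4.73) and 2.65 (2.28 to 3.08). Vehicle had split off a further 921 cells led by Ccr6 and Cd40lg, with 249.99 CPM of Tcf7, for which Vehicle-OVA had no counterpart. The Il17a and Il17f-led cluster of all cells, drawn alike in all libraries, had Tcf7 at 172, 459, 160 and 499.98 CPM. Of the 18 genes of the naive and memory list 7 were past 2-fold higher and 0 lower in the Vehicle pair, and 5 higher (Satb1, Bach2, Bcl2, Foxp1 and Ikzf1) and 0 lower in the Ribavirin pair, with medians of 0.92 and 0.64. Of these 18, 0 passed for Ribavirin over Vehicle, against 0.749% of all genes. In Ribavirin-OVA 1 was lower than in Vehicle-OVA (Igfbp4), where 2.47% of all genes were past 2-fold. Of all genes read in T cell-like cells, 15.7% and 12.4% were past 2-fold in the OVA pairs. Bcl2, a survival factor, had 67.2, 244, 66.9 and 239 CPM and Satb1, a chromatin organiser, 228, 658, 268 and 544 CPM.

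The 9 factors were set beside 47 other transcription factors of lymphocytes, of which 46 could be read in T cell-like cells. Of all genes read there, 15.7% were past 2-fold in the Vehicle pair and 12.4% in the Ribavirin pair. Past 2-fold were 18 higher and 0 lower in the Vehicle pair, with a median log2 ratio of 0.91, and 12 higher and 1 lower (Batf3) in the Ribavirin pair, with a median of 0.70. Ribavirin over Vehicle gave 0, and Ribavirin-OVA over Vehicle-OVA 1 lower (Batf3), against 0.749% and 2.47% of all genes. Pparg, known from type 2 helper T cells and ILC2, had 1.4, 10.9, 1.6 and 19.8 CPM, and Bach2, a repressor of effector genes, 13.9, 47.6, 16.9 and 39.9 CPM. Of 20 genes that respond to tissue dissociation 6 were past 2-fold higher in the Vehicle pair and 3 in the Ribavirin pair (Ier3, Hspa1a and Hspa1b), 0 were lower, and 0 passed in the 2 pairs of ribavirin with vehicle. Of all genes, 15.7% and 12.4% were past 2-fold in the 2 OVA pairs. The medians of these 20 genes were 0.48 and 0.12, beside 0.39 and 0.37 for all genes. Ier3, an early response gene, had 18.2, 128, 25.5 and 71.2 CPM, and the heat shock gene Hspa1b 1.99, 11.6, 3.82 and 9.18 CPM. The part of dissociation in the ratios was not tested.

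Likeness of pattern was described by Pearson's r of log2(CPM + 1) over 40 sums, 10 classes in 4 libraries, which share libraries, depth and class makeup. Only classes with at least 50 cells in every library were used. ILC2-like cells, where Gata3 was highest, had 41 cells in Vehicle-OVA and were left out. The most alike genes were Kcnc1 for Gata3 (0.98), Txk for Tbx21 (0.96), Tdrd9 for Foxp3 (0.97), Samd3 for Eomes (0.98) and Nefh for Tcf7 (0.95). For Id2 it was Ubash3b (0.95), for Bcl6 Notch2 (0.89), for Maf Gm15655 (0.88) and for Zbtb16 Ttc39c (0.83).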

How the data were processed

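The authors deposited 4 matrices of UMI counts, genes by barcodes, with the gene and barcode lists. The submitters' processing notes name Cell Ranger 5.0.0 and mm10. The gene annotation is not given in the sources used here, and the counts had not been normalized or corrected for free RNA. Libraries were droplet libraries (10x Chromium X) primed with oligo-dT. Here barcodes with at least 500 UMIs, 200 genes and under 10% mitochondrial UMIs were kept. Scrublet's own threshold marked almost no doublets in the OVA libraries, so the cells with the highest scores were removed up to an expected 0.4% per 1000 cells.

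Cells of all libraries were clustered together with scanpy 1.11.5 (2000 variable genes without the 9 factors, 30 components, 15 neighbours, Leiden resolution 1), with no batch correction. A cluster was named where at least 3 markers of a list passed 2-fold and were found in at least 10% of its cells. Lymphoid cells were subclustered per library, since a joint subclustering split almost wholly by OVA. Subclusters were matched between libraries by leading genes after values were seen, and the Il17a-led set was first matched on Il17f. Also chosen after seeing the data were the doublet number, the naming of the regulatory cluster within the T cell-like class, the subclustering per library and the longest transcript as gene length (98.7% of genes had one). For each class and library UMIs were added up and given as CPM with exact Poisson intervals at 95%, shares with exact Clopper-Pearson intervals and ratios with exact conditional binomial intervals, which cover counting error only. The groups have 1 library each, so no test between groups was run. The sums, ratios and intervals were tested on simulated data. Alternatives are given in the closing section.

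The 9 factors, the gene lists and the marker lists were chosen with earlier results of these data known. All 9 factors are named, with the most alike genes, and at most 3 genes of each list, those with the largest ratio in the Vehicle pair among genes past 2-fold in the same direction in both OVA pairs. Genes listed beside small counts, leading genes of clusters and type 2 genes past 2-fold in neither pair were named besides, after their values were seen. Lists share genes, such as Il4 and Il10. Sequences of the proteins were not used here. Python 3.11.15, numpy 2.4.6, scipy 1.17.1 and pandas 2.3.3 were used.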

Additional observations from a re-analysis of the deposited data

Results flagged for a closer look

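OVA went with opposite directions in different cell classes for Zbtb16 and Id2, in both pairs of libraries, and the difference between classes was not tested. The log2 ratio of Zbtb16 was 1.395 in T cell-like cells for Vehicle-OVA over Vehicle and 0.60 for Ribavirin-OVA over Ribavirin. In Macrophage-like cells it was −1.64 and −2.14, and in Neutrophil-like cells −1.13 and −0.73. Both myeloid classes were divided differently over clusters in the libraries compared. A Ccl24 and Arg1-led cluster held 39, 1995, 75 and 1541 of the 2198, 2203, 1749 and 1737 Macrophage-like cells in the order Vehicle, Vehicle-OVA, Ribavirin and Ribavirin-OVA. Of the 4172, 7490, 4825 and 1674 Neutrophil-like cells, 3076, 585, 1419 and 378 lay in a Lrg1 and Cxcr2-led cluster, 83, 19, 2359 and 142 in a G0s2-led one, 92, 2066, 94 and 220 in a Retnlg and Mmp8-led one and 5, 2692, 27 and 49 in a Csf3 and Cxcl3-led one. The T cell-like value of the Ribavirin pair was −0.05 when scaled by genes of like transcript length. The log2 ratio of Id2 was 0.58 and 0.50 in T cell-like cells and −0.74 and −0.84 in Epithelial-like cells, where the level was 304, 181, 233 and 130 CPM in that order. Of the 146, 139, 337 and 282 Epithelial-like cells, 74, 8, 82 and 15 lay in a cluster led by Trpm5 and Avil and 3, 56, 143 and 125 in one led by Krt5 and Muc5ac. A difference within a population and a change of populations cannot be told apart in these ratios.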

How the results depend on the processing

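The counts of factors past 2-fold rest on few genes and moved with several settings, and the cause was not tested. Except for scaling by the median of all genes, the share of all genes past 2-fold under a changed setting is not given here. A changed count of factors can therefore not be told apart from a shift of the whole gene list. With a mitochondrial share under 5%, the count was 7 in T cell-like, 1 in NK-like and 1 in ILC2-like cells for Vehicle-OVA over Vehicle and 0 in NK-like cells for Ribavirin-OVA over Ribavirin. With a share under 20% it was 1 in ILC2-like cells for the Vehicle pair, 0 in NK-like cells for the Ribavirin pair, and 0 in NK-like and 1 in ILC2-like cells for Ribavirin-OVA over Vehicle-OVA. Scaling by the median of all genes gave 2 in T cell-like, 0 in NK-like and 1 in ILC2-like cells for the Ribavirin pair and 0 in ILC2-like cells for the Vehicle pair. Of all genes, 12.3% and 9.75% were then past 2-fold in T cell-like cells of the Vehicle and Ribavirin pairs. These shares were 15.1% and 10.0% in NK-like and 23.8% and 17.7% in ILC2-like cells. Scaling by genes of like transcript length gave 2 in T cell-like cells for both OVA pairs, 0 in NK-like and 1 in ILC2-like cells for the Ribavirin pair, and 0 in ILC2-like cells for the Vehicle pair. Classes from single-cell markers gave 2 in T cell-like cells for the Ribavirin pair, but 281 T cell-like cells in Vehicle-OVA. For the Ribavirin pair, the mean of single-cell CPM gave 0 in NK-like and 1 in ILC2-like cells, a pseudocount of 5 CPM 0 in NK-like cells, and the factors among the variable genes 1 in ILC2-like cells. For Ribavirin-OVA over Vehicle-OVA, doublets kept gave 0 in NK-like and 1 in ILC2-like cells, a pseudocount of 5 CPM 0 in NK-like cells and genes with at least 20 UMIs 1 in ILC2-like cells. With at least 200 UMIs per gene, NK-like cells gave 1 for the Vehicle pair and 0 for Ribavirin-OVA over Vehicle-OVA. The other counts stayed within 1.5 times their value.

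Over 16 settings Gata3 in T cell-like cells stayed past 2-fold in both OVA pairs, at log2 ratios of 1.20 to 1.78 and 1.60 to 2.33. Eomes did so in the Vehicle pair (1.05 to 1.63) and in 15 of 16 settings in the Ribavirin pair (0.82 to 2.09). Foxp3 ran from −0.16 to 0.69 and from −0.55 to 0.24 and Zbtb16 in the Ribavirin pair from −0.05 to 0.85, so their direction depended on the setting. The 2 settings that left out T cell-like clusters were chosen after seeing the data. ILC2-like cells gave no value at 1000 UMIs and 500 genes or at resolution 0.5, and NK-like and ILC2-like cells gave none from single-cell markers. No paired analysis was possible because each group is 1 library, and for the same reason no replicate could be left out.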
